A study of Mus musculus with 2 samples.

Results

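The regions described here are 829 strong, narrow, distal sites of open chromatin in mouse adipocytes. They were chosen among 114395 autosomal intervals that held a DNase I peak of both libraries. A site had to reach a peak value of at least 110 in replicate 1 and 140 in replicate 2. Its centre had to lie more than 1000 bp from the start of every protein-coding transcript of GENCODE M21 and outside replicate 1 hotspots (broader regions of raised cutting) of 2000 bp or more. Intervals on chromosome 10 at 107.2 to 107.3 Mb and 117.2 to 118.7 Mb were left out, which removed 371 otherwise fitting intervals. The sites made up 0.914% of the 90739 narrow distal intervals, and the other 89910, below 1 or both values, are called weaker narrow distal sites. The smaller comparison sets were 148 equally strong distal intervals in hotspots of 2000 bp or more and 2845 equally strong intervals within 1000 bp of a coding start.

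The study was DNase-seq of 1 group, adipocytes derived in culture from 3T3-L1 by day 8, with 2 libraries numbered as biological replicates. 3T3-L1 is a preadipocyte line, a single cultured lineage that fills with lipid after hormonal induction, and both cultures carried the same donor record. The labels named the strain C57BL/6J, although 3T3-L1 is generally described as coming from Swiss mice. They gave no sex, age or developmental stage. Each library pooled several technical replicates. Undifferentiated cells were not analysed here, so nothing is compared with a control. Shared promoter intervals were present at the adipocyte genes Pparg, Cebpa, Adipoq, Fabp4, Plin1 and Lpl and also at Pdgfra, a preadipocyte gene. None was present at Dlk1, a preadipocyte gene, or at the other-lineage genes Alb, Ptprc, Myod1, Nanog and Pecam1.

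DNase I cuts DNA where nucleosomes have given way to bound proteins, so its peaks mark promoters, enhancers and insulators. In adipocytes, enhancers are known to be bound by C/EBP proteins, by the nuclear receptor PPARG with its partner RXR, by NFI proteins and by AP-1. CTCF, the insulator protein that anchors chromatin loops, binds a long motif and gives many distal DNase I sites in every cell type. SP, KLF, NFY, ETS and CREB proteins are best known at promoters.

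The central 150 bp of 12 sites are shown because the results below turn on them: sites with the highest values, both sites with a CTCF core, and sites near adipocyte genes. They are the plus strand of GRCm38.p6 from RefSeq, the same assembly as mm10. Capitals mark matches to the CTCF core, PPAR-RXR, C/EBP (TTGCNNAA), AP-1 (TGANTCA), the NFI monomer site (TTGGCNNNG), SP (GGGCGGG), KLF (CCCCACCC), NFY (CCAATCA), ETS (CCGGAAG) and CREB (TGACGTCA), searched on both strands.
Cwc22 intron, chr2:77905946-77906095: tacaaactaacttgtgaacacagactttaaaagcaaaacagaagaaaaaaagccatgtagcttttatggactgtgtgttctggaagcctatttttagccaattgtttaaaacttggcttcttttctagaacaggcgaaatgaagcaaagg
Aida intron, chr1:183299266-183299415: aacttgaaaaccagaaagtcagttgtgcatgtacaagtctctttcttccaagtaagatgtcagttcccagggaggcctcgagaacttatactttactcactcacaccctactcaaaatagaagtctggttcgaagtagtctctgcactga
Upstream of Zfp869, chr8:69717006-69717155: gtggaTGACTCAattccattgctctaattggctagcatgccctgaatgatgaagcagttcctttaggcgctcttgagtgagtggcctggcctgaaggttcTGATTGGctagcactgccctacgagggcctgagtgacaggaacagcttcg
Nearest to Nfe2l3, chr6:51178606-51178755: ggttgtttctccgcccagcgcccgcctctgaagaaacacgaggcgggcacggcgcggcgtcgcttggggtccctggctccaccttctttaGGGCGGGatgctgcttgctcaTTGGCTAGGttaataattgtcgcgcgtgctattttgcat
Tango2 intron, chr16:18345356-18345505: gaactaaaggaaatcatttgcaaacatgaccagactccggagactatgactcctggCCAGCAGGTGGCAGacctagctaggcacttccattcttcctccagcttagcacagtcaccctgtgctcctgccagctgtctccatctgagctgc
Near Mir210, chr7:141221846-141221995: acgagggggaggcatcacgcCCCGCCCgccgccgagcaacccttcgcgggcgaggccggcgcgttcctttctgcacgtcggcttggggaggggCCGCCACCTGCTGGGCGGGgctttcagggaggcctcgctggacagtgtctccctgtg
Tapt1 intron, chr5:44239826-44239975: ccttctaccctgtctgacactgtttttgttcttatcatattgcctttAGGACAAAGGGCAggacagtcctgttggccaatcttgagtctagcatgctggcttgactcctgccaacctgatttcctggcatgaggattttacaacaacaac
Pparg intron, chr6:115424536-115424685: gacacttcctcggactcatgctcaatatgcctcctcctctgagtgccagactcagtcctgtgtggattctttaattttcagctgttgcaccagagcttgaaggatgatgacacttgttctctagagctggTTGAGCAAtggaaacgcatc
Upstream of Adipoq, chr16:23144486-23144635: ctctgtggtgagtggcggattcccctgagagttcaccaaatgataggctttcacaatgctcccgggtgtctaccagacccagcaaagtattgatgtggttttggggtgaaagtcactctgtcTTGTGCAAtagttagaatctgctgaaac
Upstream of Fabp4, chr3:10213856-10214005: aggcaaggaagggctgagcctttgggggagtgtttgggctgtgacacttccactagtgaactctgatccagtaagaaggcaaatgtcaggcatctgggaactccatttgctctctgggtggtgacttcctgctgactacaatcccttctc
Elovl6 intron, chr3:129536316-129536465: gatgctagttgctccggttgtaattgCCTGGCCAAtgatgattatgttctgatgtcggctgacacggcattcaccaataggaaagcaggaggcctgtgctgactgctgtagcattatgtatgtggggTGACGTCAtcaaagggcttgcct
Irs1 intron, chr1:82283306-82283455: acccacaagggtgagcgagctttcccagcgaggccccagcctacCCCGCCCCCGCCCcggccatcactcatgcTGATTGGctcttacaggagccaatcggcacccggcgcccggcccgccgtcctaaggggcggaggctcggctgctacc
The Tango2 and Mir210 sites hold the CTCF core in capitals, on the plus strand in the first and the minus strand in the second, where an SP match overlaps its end. The Tapt1 site holds a PPAR-RXR match, the Pparg and Adipoq sites hold a C/EBP match each, and the Elovl6 site holds an NFI monomer site and a CREB site. The Zfp869 site has AP-1 and NFY matches, the Nfe2l3 site NFI monomer site and SP matches, and the Irs1 site SP and NFY matches. The Cwc22, Aida and Fabp4 sequences hold none of the motifs marked.

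The sites were selected on their peak values, which are therefore given as a description. The deposited value is a whole number from 1 to 150 on peaks that are all 150 bp wide. Over the 829 sites it ranged from 110 to 148 in replicate 1, with a median of 117, and from 140 to 150 in replicate 2, with a median of 144. In weaker narrow distal sites the medians were 44 in replicate 1 and 86 in replicate 2. Replicate 2 was higher than replicate 1 at all 829 sites, by a median of 27. The same held for 89905 of the 89910 weaker narrow distal sites, by a median of 38. At strong sites the limits of 110 and 140 and the top value of 150 bound this difference. The medians of 27 and 38 therefore do not compare how well the libraries agree. At the lower edge, 60 sites had exactly 110 in replicate 1 and 86 had exactly 140 in replicate 2. Just outside, 68 intervals had 109 in replicate 1 while passing in replicate 2, and 60 had 139 in replicate 2 while passing in replicate 1. Another view of the same edge is that 333 narrow distal intervals passed in replicate 1 alone and 660 in replicate 2 alone.

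**Figure D1:**
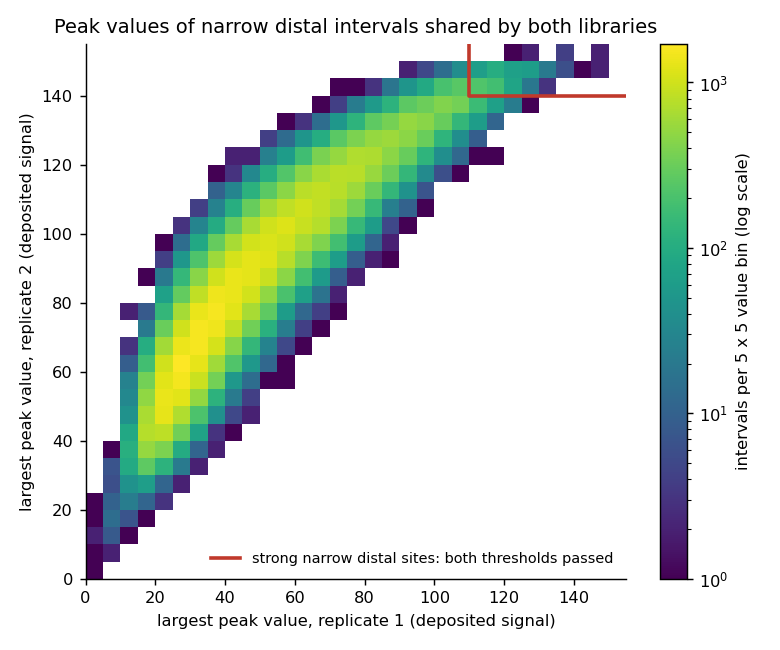
Number of narrow distal intervals by their largest peak value in replicate 1 (x axis) and replicate 2 (y axis), both as deposited, with colour on a log scale. The red lines mark the values of 110 and 140 that the strong narrow distal sites had to reach, and replicate 2 values flatten towards 150 where replicate 1 values still spread.

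The word narrow holds only as a limit. The hotspots around the strong narrow distal sites had a median width of 952 bp in replicate 1, against 284 bp for weaker narrow distal sites and 1232 bp for strong intervals near a coding start. The deposited −log10 q of the hotspot stood at its ceiling of 100 for 826 of the 829 sites, or 99.6%, and for 48.5% of the weaker ones. Each site was nearly always 1 peak: 814 intervals held 1 peak of each library, and the median interval was 170 bp wide. Repeat-masked sequence was absent from 62.2% of the strong sites and 48.5% of the weaker ones. No strong site was masked over more than 80% of its length, as 1.18% of weaker sites were.

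The word strong also holds only as a limit. The strong narrow distal sites had a median of 117 in replicate 1, against 119 for strong intervals near a coding start, whose replicate 2 median was also 1 higher. Both sets were cut at the same limits of 110 and 140, so these medians do not rank the sets by strength.

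The highest values gathered at 1 locus. A percentile here is the rank of a value among all autosomal peaks of the same library. Of the 12 sites with the highest mean percentile in the libraries, 6 lay at Cwc22, a splicing factor gene on chromosome 2. Its intronic site at chr2:77905936-77906105 had 148 in replicate 1 and 150 in replicate 2, and the intergenic site at chr2:77993036-77993225 had 150 in replicate 2 and stood at percentile 99.98 of the replicate 1 values. In all 19 strong sites lay within 88.4 kb there, from 77905936 to 77994285, with replicate 1 values of 114 to 148 and replicate 2 values of 141 to 150. They were 19 of the 33 narrow distal intervals between 77.86 and 78.01 Mb, whose medians were 116 in replicate 1 and 142 in replicate 2. On the rest of chromosome 2 the medians were 46 and 89, and 82 of 7875 narrow distal intervals, or 1.04%, were strong. Cwc22 lies in a stretch that is known to vary in copy number among mice. Copy number was not measured here, and its part in these values was not tested. Without the 19 sites the NFI monomer site was in 20.7% of strong sites and C/EBP in 14.8%, close to the 20.4% and 15.1% with them.

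The other 6 of the highest 12 were spread over chromosomes 1, 3, 5, 6 and 8. The Aida intron on chromosome 1 held the site with 148 in replicate 1 and 149 in replicate 2, at chr1:183299256-183299425, in a hotspot of only 561 bp. A site with 138 and 150 lay at chr8:69716996-69717165, 13 bp from a RefSeq mRNA start of Zfp869, a zinc finger gene, but 6.36 kb from its nearest GENCODE coding start. The site at chr6:51178596-51178765, with 136 and 150, lay 254 kb from Nfe2l3 and held 14 CpG dinucleotides in its central 150 bp. The site at chr3:37402236-37402425, with 133 and 149, was assigned to Nudt6, and its nearest start of any kind belonged to Fgf2, the growth factor gene on the opposite strand. On chromosome 5 the sites nearest to Grifin (138 and 149) and Ap5z1 (136 and 149) completed the 12, neither with another start within 1000 bp.

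The share of narrow distal intervals that were strong differed between chromosomes. It was highest on chromosome 6, where 100 of 5987 intervals were strong, 1.67% (95% interval 1.36 to 2.03). It was 1.58% on chromosome 16, 1.45% on chromosome 17 and 1.42% on chromosome 19. It was lowest on chromosome 14, with 5 of 3209 or 0.156% (0.0506 to 0.363), followed by chromosome 7 with 13 of 4549 or 0.286%. The highest share was 10.7 times the lowest. The medians of all narrow distal intervals were 48 in replicate 1 and 91 in replicate 2 on chromosome 6, and 39 and 79 on chromosome 14. A level that differs by whole chromosome bears on which sites were chosen, and its part in these shares was not tested. When the same share of the highest intervals was taken within each chromosome instead, a choice made after seeing the data, 650 of 830 were among the strong narrow distal sites.

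**Figure D2:**
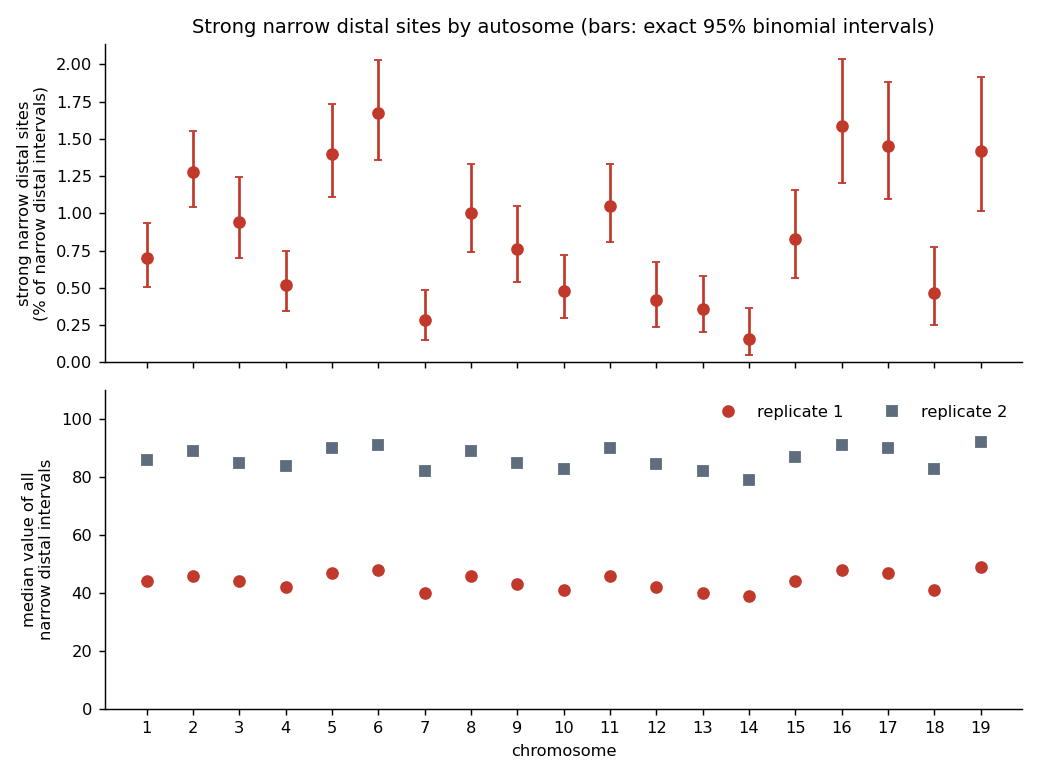
Top, strong narrow distal sites as a percentage of narrow distal intervals on each autosome, with exact 95% binomial intervals. Bottom, median deposited peak value of all narrow distal intervals in replicate 1 (circles) and replicate 2 (squares); chromosomes 14, 7 and 13 are low in both panels, and 6, 16 and 19 are high.

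Most strong sites had no other strong site within 10 kb. The median distance between neighbours on a chromosome was 780 kb, and 123 of the 829 lay in 54 groups with gaps under 10 kb. With gaps under 100 kb, 315 sites, or 38.0%, lay in 131 groups. Spacing was not compared with that of other intervals. The centre was in an intron of some gene at 405 sites, or 48.9% (95% interval 45.4 to 52.3), against 52.6% of weaker narrow distal sites. It was intergenic at 358, or 43.2% (39.8 to 46.6), against 40.8%, and in an exon at 66, or 7.96%, against 6.59%. The median distance to a coding start was 20.1 kb for strong sites and 26.7 kb for weaker ones. Sites beyond 100 kb made up 10.9% of strong sites (8.82 to 13.2) and 18.5% of weaker ones (18.3 to 18.8).

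Starts that the selection did not look at were common near the sites. Another annotated start, of a GENCODE transcript that is not labelled protein-coding or of a RefSeq transcript, lay within 1000 bp of 165 strong sites, or 19.9% (95% interval 17.2 to 22.8). The same held for 9.65% of weaker sites (9.46 to 9.84) and for 39.9% of the 148 strong distal intervals in wide hotspots. A RefSeq mRNA start lay within 1000 bp of 41 strong sites, 4.95% against 1.78% of weaker sites. Dancr, a long noncoding RNA gene, had a site at its start with 130 in replicate 1 and 148 in replicate 2 (chr5:74092916-74093065), and this site holds a KLF and an NFY match. Sites lay near the starts of the microRNA genes Mir199a-1 (126 and 143), Mir148b (123 and 142), Mir6976 (121 and percentile 98.8), Mir210 (112 and 147) and Mir7671 (111 and 144). Mir210, the microRNA best known for its induction by low oxygen, is 428 bp from its site, which has 17 CpG dinucleotides in the 150 bp. The highest site beside a noncoding start was at chr5:138207336-138207505, 72 bp from a start of Gm454, with 141 and 148.

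CTCF cores were nearly missing at the centres of the strong sites. A CTCF core lay in the central 150 bp of 2 of 829 strong sites, or 0.241% (95% interval 0.0292 to 0.869). It lay in 4002 of 89910 weaker narrow distal sites, or 4.45% (4.32 to 4.59). The sites were the Tango2 intron, chr16:18345356-18345505, with 116 in replicate 1 and 144 in replicate 2, and the one near Mir210, chr7:141221836-141222005, with 112 and 147. The strong distal intervals in wide hotspots had 1 match in 148, strong intervals near a coding start had 1 in 2845, and windows 1000 bp to either side of the strong sites had 0 in 1658. Weaker sites in hotspots of 703 to 1309 bp, the middle range of the strong sites, held a core in 2.23%. Allowing 1 mismatch gave 13 strong sites, 1.57% (0.838 to 2.67), against 14.2% of weaker sites (13.9 to 14.4).

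The share of intervals with a CTCF core was highest in the middle to upper range of peak values. Over all narrow distal intervals it was 1.81% at replicate 1 values of 1 to 29 and 8.99% at 80 to 89. It was 2.54% at 100 to 109, 0.916% at 110 to 119 and 0 of 289 at 120 to 150, a count that allows up to 1.27% by the exact interval. Along replicate 2 values it was 2.20% at 1 to 59, 7.72% at 100 to 109, 1.00% at 140 to 144 and 0.256% above 144. The 4004 narrow distal intervals with a core had median values of 59 in replicate 1 and 97 in replicate 2, above the medians of 44 and 87 over all narrow distal intervals, and none exceeded 118 in replicate 1 or 147 in replicate 2.

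**Figure D3:**
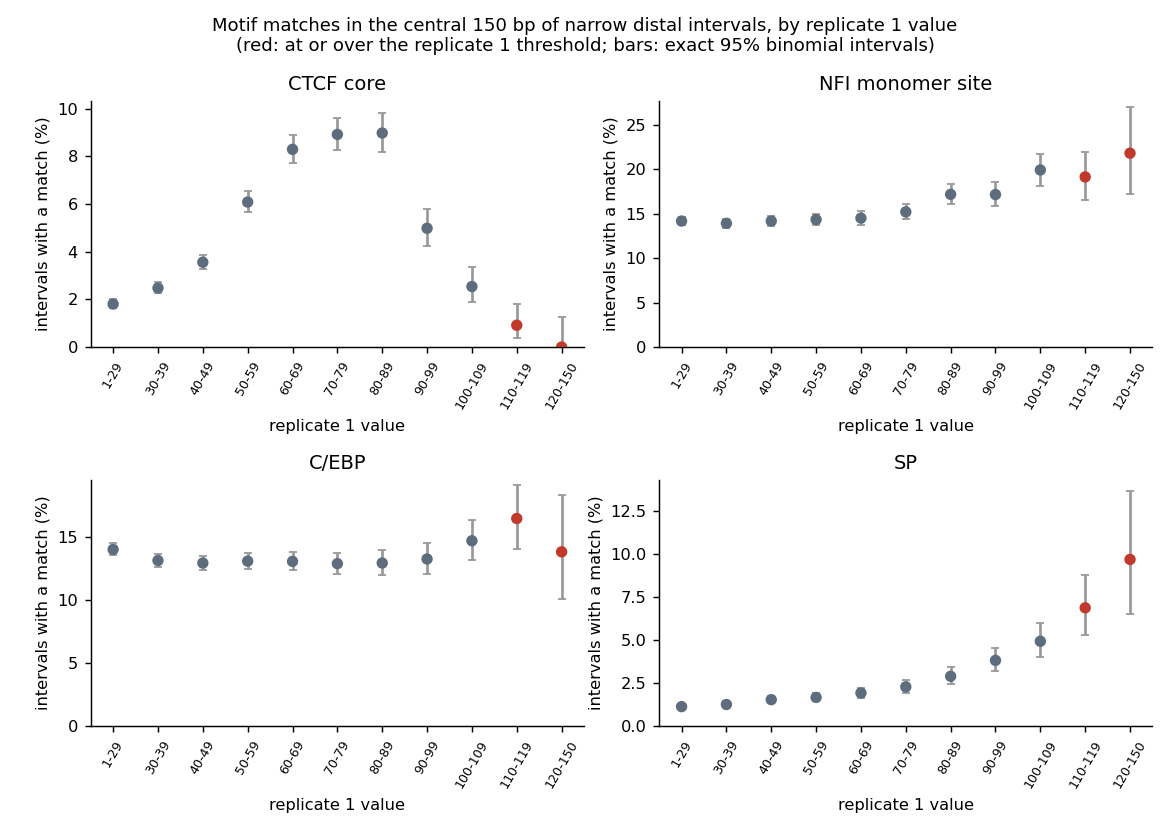
Percentage of narrow distal intervals with a match in the central 150 bp, by replicate 1 value from low to high, for 4 motifs, with exact 95% binomial intervals; red points lie at or above 110. The CTCF core peaks at 80 to 89 and reaches 0 at 120 to 150, SP climbs throughout, the NFI monomer site is higher above 70 than below and C/EBP stays between 12.9% and 16.5%.

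Of the few strong sites with a CTCF core nearby, more had it beside the centre than under it, with overlapping intervals. Counts here go by the midpoint of a match, which may itself run past the central 150 bp. The midpoint lay within 75 bp of the centre at 3 strong sites, or 0.362% (95% interval 0.0747 to 1.05). It lay between 75 and 150 bp from the centre at 9, or 1.09% (0.498 to 2.05). Among weaker sites the counts were 4027 within 75 bp and 107 between 75 and 150 bp, the last being 0.119% (0.0975 to 0.144). In weaker sites 3101 had the match within 25 bp of the centre. From 150 to 500 bp the shares were 0.362% of strong sites and 0.264% of weaker sites, with overlapping intervals.

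Some other long motifs had few or no matches. The NFI palindrome was in 0 of 829 strong sites, which allows up to 0.444%, against 0.871% of weaker sites and 0.762% (0.573 to 0.993) of weaker sites in hotspots of 703 to 1309 bp. The motif of REST, a repressor of neuronal genes, with up to 2 mismatches, was in 0 strong sites and 0.661% of weaker ones, but in 0.127% (0.0581 to 0.241) of weaker sites in hotspots of 703 to 1309 bp, within what the 0 allows. The glucocorticoid receptor motif was in 1 strong site, or 0.121% (0.00305 to 0.670), against 0.316% of weaker sites, with overlapping intervals. The NFI monomer site was in 169 strong sites or 20.4% (95% interval 17.7 to 23.3), against 14.7% of weaker sites and 7.60% of the windows to the side. In weaker sites in hotspots of 703 to 1309 bp it was in 16.3% (15.5 to 17.2). The other strong sets had it at similar shares, 20.95% (14.7 to 28.4) in wide hotspots and 17.9% (16.5 to 19.3) near a coding start. Both of these intervals overlap that of the strong narrow distal sites.

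NFI monomer sites also extended further out around strong sites. Within 25 bp of the centre 6.63% of strong sites and 6.78% of weaker sites had one. At 50 to 75 bp the shares were 7.12% (5.46 to 9.09) of strong sites and 3.91% (3.78 to 4.04) of weaker ones. At 75 to 150 bp they were 16.3% (13.8 to 18.98) and 7.53% (7.35 to 7.70), and at 200 to 300 bp 9.41% (7.51 to 11.6) and 8.52% (8.34 to 8.71). Of 188 matches in the central 150 bp of strong sites 29.8% (23.4 to 36.9) lay within 25 bp of the centre, against 43.9% (43.1 to 44.7) of 14425 in weaker sites, where an even spread would give 35.2%. SP at 75 to 150 bp was also in more strong than weaker sites, 6.76% (5.14 to 8.68) against 1.46% (1.38 to 1.54). For C/EBP (9.65% and 8.3%) and AP-1 (7.48% and 6.01%) the intervals at that distance overlap. Hotspots were wider around strong sites, with medians of 952 and 284 bp, and the profile was not matched for width.

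**Figure D4:**
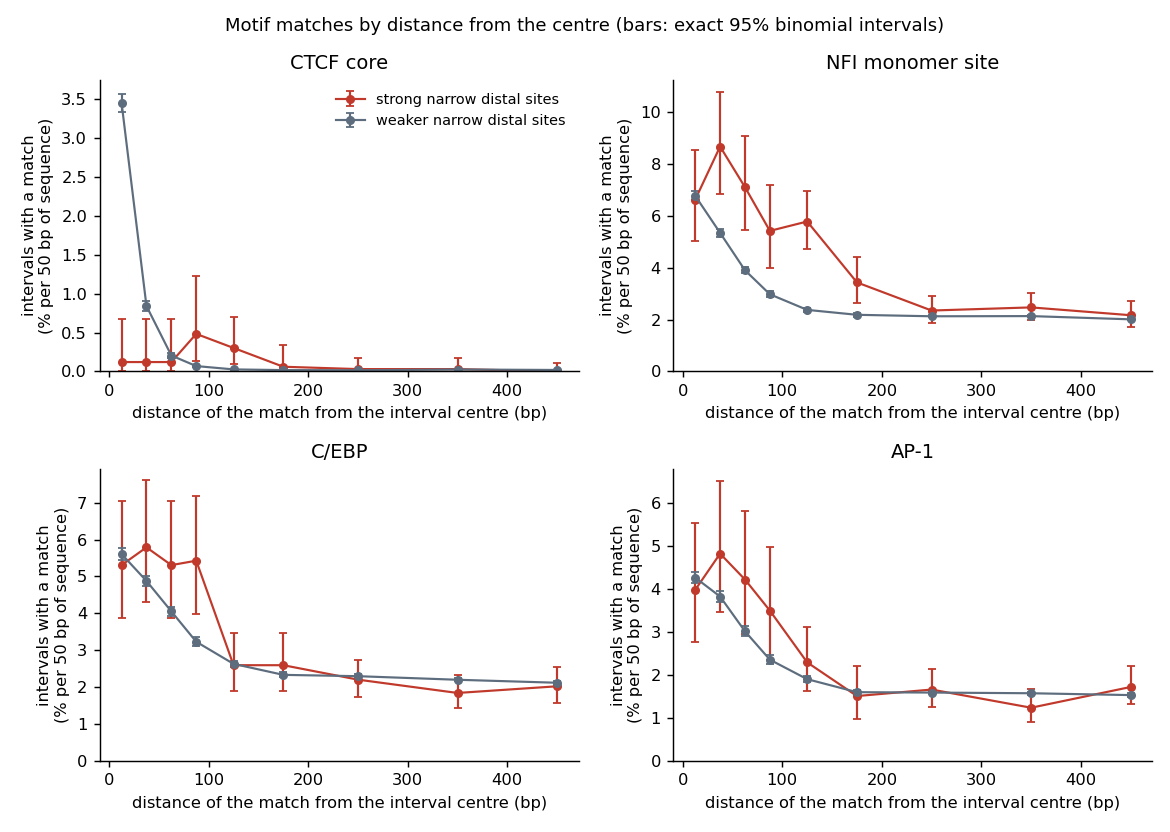
Percentage of intervals with a match per 50 bp of sequence, by distance of the match from the interval centre, for strong narrow distal sites (red) and weaker narrow distal sites (grey), with exact 95% binomial intervals. The CTCF core peaks at the centre of weaker sites. In strong sites its highest share near the centre, at 75 to 100 bp, rests on 4 sites, with an interval that overlaps that at the centre. NFI monomer sites stay high to 150 bp around strong sites.

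Motifs of the adipocyte enhancer factors were present at both levels of strength. C/EBP, the family that drives adipocyte differentiation with PPARG, had a match in 125 strong sites, or 15.1% (95% interval 12.7 to 17.7), against 13.3% of weaker sites and 6.15% of the windows to the side. AP-1, the FOS and JUN family, had one in 97, or 11.7% (9.59 to 14.1), against 10.2% of weaker sites and 4.04% of the windows to the side. Over all strong and all weaker sites the intervals overlap for both motifs, while those of the strong sites and the windows to the side do not. The strict PPAR-RXR motif was in 4 strong sites, or 0.483%, against 0.413% of weaker ones. The highest of these was in the Tapt1 intron, at chr5:44239816-44239985, with 126 in replicate 1 and 148 in replicate 2. The next was in an intron of Atoh8, at chr6:72216676-72217025, with 117 and 148. C/EBP matches were in 113 of the 664 strong sites with no other start within 1000 bp, 17.02% (14.2 to 20.1). Among weaker sites with none the share was 13.6% (13.3 to 13.8). These intervals do not overlap, but dropping sites with another start was chosen after seeing the data. With the highest intervals taken within each chromosome, another such choice, C/EBP was in 13.25% (11.02 to 15.75). Weaker sites in hotspots of the middle width range of the strong sites had it in 13.25% (12.47 to 14.06). That interval overlaps the one of all strong sites. C/EBP matches were in 4.75% of strong intervals near a coding start.

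Several motifs known from promoters, SP, NFY, KLF, ETS and CREB, were commoner in strong than in weaker sites, and others were not. SP was in 70 strong sites, or 8.44% (6.64 to 10.6), against 1.73% of weaker sites and 37.1% of strong intervals near a coding start. NFY was in 5.07% against 1.79% of weaker sites, KLF in 4.22% against 2.06%, ETS in 3.26% against 0.839% and CREB in 1.09% against 0.182%. ATF4 (TGATGCAA), a stress-response factor of the CREB relatives, was in 2.17% against 1.10%, but in only 0.492% of strong intervals near a coding start. NRF1 (GCATGCGC), USF, E2F and YY1 had intervals that overlap those of weaker sites, and YY1 was in 0.724% of strong and 1.10% of weaker sites. Against weaker sites in hotspots of 703 to 1309 bp the differences were smaller. There SP was in 3.43% (3.02 to 3.88), NFY in 2.02%, ETS in 1.37% and CREB in 0.268%, all with intervals below those of the strong sites. KLF was in 2.92% (2.54 to 3.34) and ATF4 in 1.19% (0.947 to 1.47), which overlap the strong sites' 2.96 to 5.82 and 1.29 to 3.41. KLF was also in 3.26% (2.46 to 4.23) of the windows to the side. At least 1 of SP, KLF, NFY, ETS, CREB and NRF1 was in 157 strong sites, or 18.9% (16.3 to 21.8), and in 6.45% of weaker ones. Such a motif was in 42.4% (34.8 to 50.3) of the 165 strong sites with another start nearby and in 13.1% (10.6 to 15.9) of the 664 without one. Among weaker sites without such a start the share was 5.99% (5.83 to 6.16) for the motifs pooled. NFY by itself was in 2.71% (1.61 to 4.25) of strong and 1.73% (1.64 to 1.82) of weaker sites without such a start, which overlap. Base composition moved with it: GC content averaged 53.8% ± 6.69 (SD, n = 829 sites) in strong sites and 48.4% ± 6.56 (SD, n = 89910 sites) in weaker ones, and CpG dinucleotides 3.45 and 1.83 per 150 bp. The part of base composition in the motif shares was not tested.

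**Figure D5:**
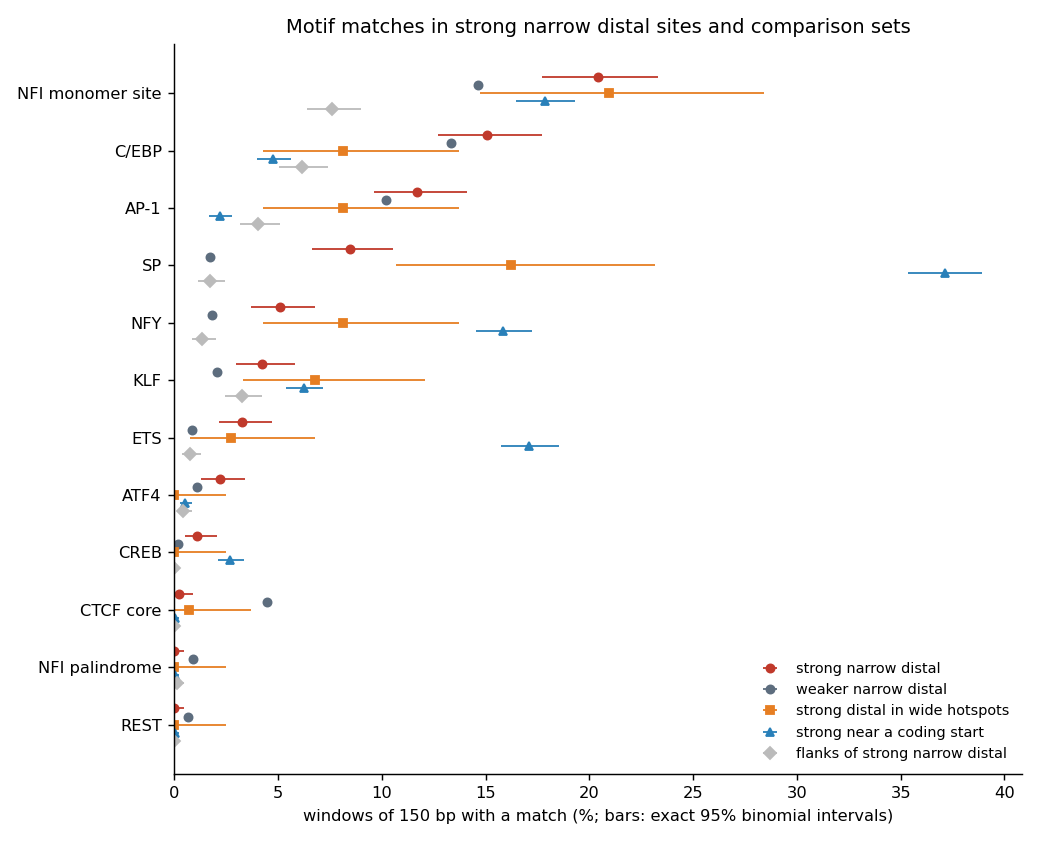
Percentage of 150 bp windows with a match for 12 motifs in strong narrow distal sites, weaker narrow distal sites, strong distal intervals in wide hotspots, strong intervals near a coding start and windows 1000 bp to either side of the strong sites, with exact 95% binomial intervals. Strong narrow distal sites lie above weaker ones for the NFI monomer site and the SP, KLF, NFY, ETS and CREB motifs and below them for the CTCF core, the NFI palindrome and REST.

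Of the 29 motifs searched, 7 had an interval above that of the weaker sites, 3 below and 19 overlapping it. No test was made of these differences, since sites are not replicates and motifs, GC content and position are linked. TEAD (GGAATG) was in 10.01% of strong and 10.2% of weaker sites, and EBF, an adipogenic factor family, in 3.14% and 2.31%. RUNX (TGTGGTT) was in 3.86% and 4.36%, and STAT (TTCNNNGAA) in 6.03% and 5.94%. The tRNA B box was in 0 strong sites and 0.227% of weaker ones.

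Within 100 kb of a coding start, 739 of the strong sites were assigned to 641 nearest genes, 3.09% of the 20733 protein-coding genes. Of these genes 566 had 1 site and 69 had 2. Cwc22 had 19, and Afap1l2, Irs2, Cebpb and Ppp2r1b had 3 each. Assignment is by distance alone and does not show which gene a site acts on.

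Among adipogenic transcription factors 4 of 18 genes, or 22.2%, had a strong site, against 3.09% of all coding genes. Such gene counts also depend on how many narrow distal intervals each gene has. These 18 genes had 303 and all 20733 coding genes had 73979, so the share of intervals is given for each list too. Pparg had 2: the intronic site at chr6:115424536-115424685, with 116 in replicate 1 and 147 in replicate 2, and the exonic one at chr6:115463036-115463225, with 111 and 140. Cebpb, an early C/EBP gene of adipogenesis, had its 3 sites downstream, 9.22, 76.4 and 88.7 kb from the start, with replicate 1 values of 117, 121 and 115 and replicate 2 values at the percentiles 98.8, 98.4 and 99.3. Cebpd had 1 at 61.1 kb (116 and 144), and Zfp423, a preadipocyte commitment factor, had an intronic one with a C/EBP match (117 and 144). Of the narrow distal intervals assigned to these 18 genes 7 of 303 were strong, 2.31% (95% interval 0.934 to 4.70), against 0.999% (0.928 to 1.07) over all coding genes. The 95% intervals of these shares overlap.

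Genes of lipid storage and lipolysis had strong sites at 5 of 17, or 29.4%, against 3.09% of all coding genes. Fabp4, the fatty acid carrier, had one 5.36 kb upstream at chr3:10213856-10214005 with 114 and 141, in a hotspot of 834 bp. Plin1, the lipid droplet coat protein, had one 1.88 kb upstream (120 and 144), and Abhd5, the lipase activator, had one 56.9 kb away that holds NFI monomer site and C/EBP matches (116 and 140). Cav1 and Cavin1, which build the caveolae of the adipocyte surface, had 1 each (118 and 146 for Cav1, 111 and 141 for Cavin1). Strong sites were 5 of the 153 assigned narrow distal intervals, 3.27% (1.07 to 7.46), against 0.999% over all coding genes.

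Fatty acid and triglyceride synthesis had strong sites at 5 of 15 genes, or 33.3%, against 3.09% of all coding genes. Pck1, which makes the glycerol backbone precursor in fat, had one 1.06 kb upstream at chr2:173151916-173152065 with 116 and 148. Insig1, which restrains sterol synthesis, had 2 upstream in 1 hotspot of 1700 bp (125 and 147 at the higher one, 110 in replicate 1 at the other). Fasn (112 and 144), Scd1 (110 and 144) and Elovl6 (117 and 142), which synthesise, desaturate and elongate fatty acids, had 1 each. The Fasn site lay 48.8 kb upstream, in an intron and 350 bp from a transcript start of Ccdc57. The Scd1 site lay 40.25 kb upstream and the Elovl6 site 3.66 kb downstream of the start, in an intron. The share of strong sites was 6 of 157 assigned intervals, 3.82% (1.42 to 8.13), against 0.999% over all coding genes.

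Adipokine and insulin response genes had strong sites at 5 of 13, or 38.5%, against 3.09% of all coding genes. Adipoq, the adiponectin gene, had one 1.98 kb upstream with 111 and 142, at a place RefSeq annotates as an adipocyte enhancer. Lep, the leptin gene, had one 28.8 kb upstream with 116 in replicate 1 and at percentile 98.8 in replicate 2, which lies 467 bp from the RefSeq start of the noncoding gene Lnclep. The insulin receptor substrates had 1 at Irs1 (111 and 141), in a stretch with 13 CpG dinucleotides, and 3 at Irs2, the highest with 112 and 147. Strong sites were 8 of 176 assigned intervals, 4.55% (1.98 to 8.76), against 0.999% over all coding genes.

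Other lists give a view of genes outside these roles. Preadipocyte and fibroblast genes had strong sites at 2 of 15, or 13.3%, namely Thy1 (114 in replicate 1) and Col1a2 (116 and 144). Imprinted genes had them at 2 of 17, or 11.8% (Grb10 and Igf2r), and housekeeping genes at 1 of 18, or 5.56%. All of these gene shares were also above the 3.09% of all coding genes. Of their assigned intervals, 1.18% (0.144 to 4.21), 2.17% (0.264 to 7.63) and 2.22% (0.270 to 7.80) were strong, against 0.999% over all coding genes. These intervals overlap that over all coding genes (0.928 to 1.07) and also those of the adipocyte lists. The lists were chosen with earlier results of these data known, and no test of them was made.

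RefSeq functional features, mostly enhancers tested in mouse embryos, overlapped 10 strong sites, 1.21% (95% interval 0.580 to 2.21), and 0.364% (0.325 to 0.405) of weaker ones. Besides the adiponectin enhancer they included embryonic enhancers at Atoh8, Nedd4, Sorl1, Thada, Igf2r and Btg2, several of them with limb activity. Another was the Chaserr promoter region beside Chd2 (119 and 146).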

How the data were processed

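DNase-seq peak and hotspot lists on mm10 were used as deposited for 2 libraries, called by the authors in each library separately, per the labels and the text lists beside them. The deposited peak lists hold a signal per peak, a whole number of 1 to 150 of unknown scaling. The deposited hotspot lists hold −log10 of q values up to 100. Nothing in the sources used here names the caller or the aligner. The depth is unknown, and intervals over sites cover counting error only. Replicate 1 held 130001 autosomal peaks and replicate 2 held 210226, after 20 and 33 duplicate lines were dropped.

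Peaks overlapping by at least 1 bp were merged, each interval took the largest value per library, and starts came from GENCODE M21 and RefSeq (GRCm38.p6). Motifs were searched as letter patterns on both strands of the central 150 bp. Beside those spelled out with the results they were GATA factors (AGATAAG), OCT (ATGCAAAT), FOX (TGTTTAC), MEF2 (CTATTTNTA), YY1 (AAGATGGC), E2F (TTTCCCGC), USF (TCACGTGA), the tRNA B box (GTTCGANNC), a CTCF short core (AGNNGGC), SRF, EBF and the glucocorticoid receptor. The short core lies within the CTCF core and the NFI monomer site within the NFI palindrome. Shares carry exact Clopper-Pearson 95% intervals over sites. Sites were assigned to the nearest coding start within 100 kb.

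The members, motifs and gene lists were chosen with earlier results of these data known. Named sites were the 12 highest by mean percentile, the 2 highest with each main motif, the highest at each of up to 20 list genes and the 5 highest at noncoding starts. Other list sites, genes with 3 or more sites, the microRNA sites and the RefSeq features were named after their values were seen. The distance profile of motifs was added after seeing the data. Some sites and genes that these rules name are not reported here. Procedures were tested on simulated data. Python 3.11.15 was used with pandas 2.3.3, SciPy 1.17.1 and matplotlib 3.10.9.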

Additional observations from a re-analysis of the deposited data

How the results depend on the processing

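The number of strong narrow distal sites depended on the value limits: it was 2338 with limits lower by 10 and 5 and 166 with limits higher by 10 and 5 (replicate 1 and 2). Using 1 library alone, with no peak of the other required, gave 1181 with replicate 1 and 1263 with replicate 2. For replicate 2 alone the hotspot limit was applied to replicate 2 hotspots. Under the higher limits the median distance to a coding start was 22.9 kb and the intergenic share 51.2%. With a shorter or a longer minimum distance from a start the median was 17.9 or 23.5 kb. The share with a CTCF core was 0.941% at the lower limits, 0% at the higher ones, 1.33% in the central 300 bp, 1.57% with 1 mismatch, 0.792% with replicate 2 alone and 0.677% with replicate 1 alone. It stayed below that of weaker sites under all 17 alternatives tried. In weaker sites the share was 4.28% with the shorter distance, 4.61% with an overlap of 75 bp, 4.19% in 100 bp, 4.59% in 300 bp, 14.2% with 1 mismatch and 2.63% to 4.14% with 1 library alone. The share with another start was 7.26% when sites near GENCODE starts of every biotype were left out, which leaves only RefSeq starts to count. It was 25.4% with a minimum distance of 500 bp, which lets in sites whose coding start lies 500 to 1000 bp away. These 2 values follow in part from the settings themselves. The share with an SP match ranged from 5.27% without sites that have another start to 12.8% in the central 300 bp. Leaving out the Cwc22 segment, selecting within each chromosome and dropping sites with another start were chosen after seeing the data. The orientation of neighbouring CTCF cores has no value, as the 2 sites lie on different chromosomes. No paired analysis was possible because there is 1 group. The unknown depth limits any statement on a single site, and the cause of these shifts was not tested.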
